A study of Caenorhabditis elegans with 72 samples.

Results

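A group of 65 protein-coding genes of *Caenorhabditis elegans* had a higher level in animals lacking the IL-17 ligand *ilc-17.1* and nearly the control level in *malt-1* and *nfki-1* mutants. They include the insulin receptor gene *daf-2*, the nuclear receptor gene *daf-12*, the Raptor gene *daf-15* and the autophagy genes *epg-4* and *epg-7*. The genes were selected on measured values: an FPKM (a read count scaled by transcript length and by library size) of at least 1 in the control, a log2 change of at least 0.5 in *ilc-17.1* mutants, and a log2 change between -0.2 and 0.2 in both other mutants. Each log2 change was computed after adding 1 to both FPKM values. Of 19701 protein-coding genes in the table, 11747 passed the FPKM minimum, and the 65 members are 0.553% of these. Because the same values chose the members, their changes are given below as a description, with no test.

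RNA was sequenced from whole animals of 4 genotypes at the late L4 stage, the last larval stage. The control was *npr-1*, which lacks a neuropeptide receptor, and each of the 3 mutants carried the *npr-1* mutation and 1 further mutation, in *nfki-1*, *ilc-17.1* or *malt-1*. All genotypes therefore share the *npr-1* mutation, the labels give AX204 as the strain background of every sample, and the labels name no alleles. The labels list 72 samples, 18 per genotype. These are not 18 independent replicates, since the biological replicates numbered 5 for *ilc-17.1* mutants and 6 for each other genotype, and 3 of the *ilc-17.1* samples repeat a library number. The deposited table holds 1 FPKM value per gene and genotype in each comparison. Values were scaled within each comparison, so levels in *npr-1* are given from the comparison with *ilc-17.1* mutants, while each log2 change uses the *npr-1* value of its own comparison. No SD is given for any value below, since the table has no values per sample and the test results it holds, which are the authors' own, were not used. The read depth behind the values is unknown. In the table the mutant of the ligand is called ilk17, which was read as *ilc-17.1*. The level of *ilc-17.1* itself is a weak check of that reading, with an FPKM of 0.315 in *npr-1*, 0.224 in *malt-1*, 0.222 in *nfki-1* and 0.157 in *ilc-17.1* mutants, all below the minimum of 1.

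In this pathway the secreted cytokine ILC-17.1 binds a receptor that contains ILCR-1 and ILCR-2. The signal passes through the adaptor ACTL-1 and the kinase PIK-1 to MALT-1, a paracaspase, and NFKI-1, a protein related to IκB. In *C. elegans* the pathway is known for its action in neurons, among them neurons that respond to oxygen. The 3 mutants thus remove the ligand and a pair of components inside the receiving cell, and the members are genes with a higher value without the ligand and little difference without either component. None of the 7 genes of the pathway is a member. *ilc-17.1* was below the FPKM minimum, and *malt-1* and *nfki-1* were each more than 0.2 below the control in their own mutant, which excluded them. With members at 0.553% of all genes, the absence of the others says nothing about the group. In *ilc-17.1* mutants the log2 change was 0.22 for *ilcr-1*, 0.30 for *ilcr-2*, -0.12 for *actl-1* and 0.10 for *pik-1*. In *malt-1* mutants, *malt-1* itself had 3.99 FPKM against 6.49 in the *npr-1* value of that comparison, a log2 change of -0.59. For *nfki-1* in *nfki-1* mutants it was 8.94 against 24.105, a log2 change of -1.34.

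The selection took a small share of the genes with a higher value in *ilc-17.1* mutants. A log2 change of at least 0.5 above *npr-1* was seen for 5.83% of genes in *ilc-17.1* mutants (685 genes), for 3.36% in *malt-1* mutants and for 11.1% in those of *nfki-1*. A change of the same size below *npr-1* was seen for 4.85%, 2.8% and 3.97% of genes in the same order. The members are 9.49% of the 685 genes. Of those 685, 190 were also higher by 0.5 or more in *malt-1* mutants, 273 in *nfki-1* mutants and 147 in both. The mutants are all set against the same *npr-1* value, so these overlaps are shared in part through the control and are given only as counts. Among the 5169 genes within 0.2 of the control in both other mutants, 65 were higher in *ilc-17.1* mutants by at least 0.5, and 24 were lower by as much.

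Within the members the log2 change in *ilc-17.1* mutants ran from 0.50 to 0.82, with a median of 0.55 and quartiles of 0.52 and 0.60. Most were close to the limit, with 33 members under 0.55 and 16 at 0.6 or above. The median was 0.08 in *malt-1* mutants (-0.19 to 0.20) and 0.12 in *nfki-1* mutants (-0.13 to 0.20). Over all 11747 genes the median was 0.00 in *ilc-17.1* mutants and -0.01 in each of the others.

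Most members had small positive values in the other mutants. They lay above 0 in *malt-1* mutants for 51 of 65 (78.5%) and in *nfki-1* mutants for 55 of 65 (84.6%), while 44.5% and 44.7% of the 5169 genes within 0.2 in both did. More than 0.1 above the control were 38 members in *nfki-1* mutants and 24 in *malt-1* mutants. The change in *ilc-17.1* mutants exceeded that in *nfki-1* mutants by 0.31 at the least, 0.46 at the median and 0.83 at the most. Against *malt-1* mutants the corresponding gaps were 0.33, 0.48 and 0.79. "Only" in this group therefore means a larger change in 1 mutant, with small changes of mostly the same sign in the others. The mutants are all set against the same *npr-1* value, so a low *npr-1* value raises the change in each of them. Choosing genes by a high change in *ilc-17.1* mutants thus favors positive values in the others. The part of the shared control in the shares above 0 was not tested.

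**Figure D1:**
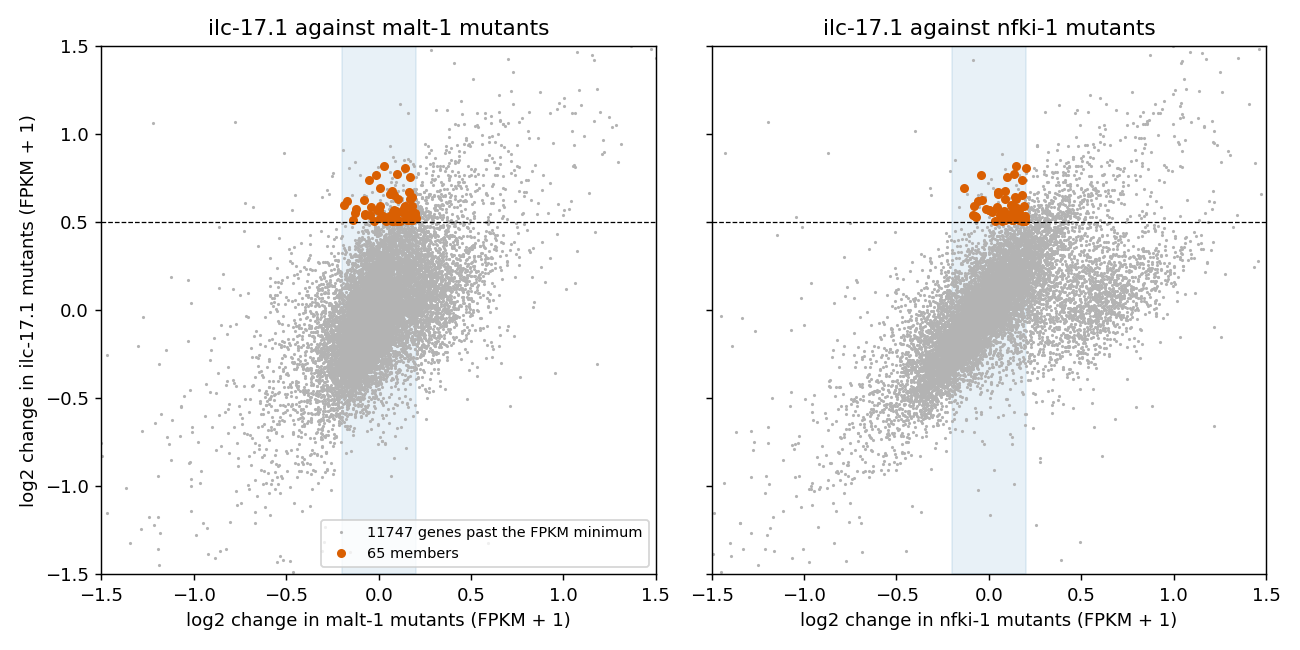
Log2 change of each gene in *ilc-17.1* mutants (vertical axis) against that in *malt-1* mutants (left) or *nfki-1* mutants (right), all relative to *npr-1* and computed on FPKM + 1. Grey points are the 11747 genes past the FPKM minimum, orange points the 65 members, the band marks changes within 0.2 and the dashed line 0.5; 75 genes on the left and 70 on the right lie beyond the axes at 1.5. The members fill the lower edge of the region above 0.5 and lie mostly right of 0.

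The limits cut through a continuous spread of values. Just inside the limit of 0.5 were *nhr-99* at 0.504, *daf-15* at 0.505 and *ikke-1* at 0.506. Just outside it were *camt-1* at 0.499, *ipla-1* at 0.499 and *imp-3* at 0.497. The limit of 0.2 was similar, with *cyp-33E1* in *malt-1* mutants at 0.19998, *srh-2* in *nfki-1* mutants at 0.199 and *apr-1* in *nfki-1* mutants at 0.197 as the members nearest to it. Genes excluded by the same limit were *ceeh-2*, at 0.204 in *malt-1* mutants and 0.62 in *ilc-17.1* mutants, *frm-5.1*, at 0.204 and 0.60, and *unc-68*, at 0.203 and 0.58.

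Several members belong to signaling pathways that set growth, metabolism and entry into the dauer stage, an arrested larval form. Insulin signaling in *C. elegans* runs from the receptor DAF-2 through AKT kinases and restrains the transcription factor DAF-16. TOR complex 1 promotes growth when nutrients are plentiful, while the AMP-activated kinase responds to low energy. The TGF-β and dafachronic acid pathways act beside insulin signaling in the dauer decision, the latter through the receptor DAF-12. Counts over pathway lists are given beside the members below. The lists were written with the member names known and add no support, and each count is to be read against the share of all genes higher by 0.5 or more, 5.83% in *ilc-17.1* mutants, 3.36% in *malt-1* mutants and 11.1% in those of *nfki-1*, and against 12.9% in *ilc-17.1* mutants for the longest quintile (20%) of genes by transcript length.

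*daf-2* (WBGene00000898, III:2995487-3040860, minus strand), which encodes the insulin/IGF receptor, had an FPKM of 13.7 in *npr-1*, 15.1 in *malt-1*, 14.3 in *nfki-1* and 20.4 in *ilc-17.1* mutants. As the selection required, the value without the ligand was the highest of the 4. The log2 change was 0.54, against 0.15 and 0.07 in *malt-1* and *nfki-1* mutants. Of 12 genes of the insulin receptor pathway past the minimum, 4 (33.3%, against 5.83% of all genes) were higher by 0.5 or more in *ilc-17.1* mutants and 0 in either other mutant. Besides *daf-2* these were *akt-2* at 0.93, *ist-1*, which encodes an insulin receptor substrate, at 0.66, and *akt-1* at 0.60. They are no members because their changes in *malt-1* or *nfki-1* mutants were over 0.2, for example 0.49 and 0.26 for *akt-2*.

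*aakg-1* (WBGene00013732, III:12538664-12548081), which encodes a gamma subunit of the AMP-activated kinase, had an FPKM of 45.9 in *npr-1*, 48 in *malt-1*, 51.7 in *nfki-1* and 72.8 in *ilc-17.1* mutants, a log2 change of 0.65 in the last. *daf-15* (WBGene00000911, IV:9386208-9394930), which encodes Raptor, the scaffold of TOR complex 1, had 19.3, 20.05, 21.9 and 27.7 FPKM in the same order, a log2 change of 0.51. Both had their highest value in *ilc-17.1* mutants, as the selection required, and their next highest in *nfki-1* mutants. Of 22 TOR and AMPK genes past the minimum, 6 (27.3%, against 5.83% of all genes) were higher by 0.5 or more in *ilc-17.1* mutants, 1 in *malt-1* and 1 in *nfki-1* mutants. The TOR kinase gene *let-363* missed the selection narrowly, with log2 changes of 0.54 in *ilc-17.1*, 0.201 in *malt-1* and 0.22 in *nfki-1* mutants. The AMPK catalytic subunit gene *aak-2* had 0.58, 0.30 and 0.29.

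*daf-12* (WBGene00000908, X:10644409-10666874) encodes the nuclear receptor for dafachronic acids, steroid hormones that promote reproductive growth. Its FPKM was 11.4 in *npr-1*, 11.6 in *malt-1*, 11.6 in *nfki-1* and 16.6 in *ilc-17.1* mutants, a log2 change of 0.51, and it is among the members with both other mutants closest to the control (0.04 and 0.03). The table gives it a locus shared with other genes. Of 6 dafachronic acid genes past the minimum, 2 were higher by 0.5 or more and 2 lower by as much in *ilc-17.1* mutants. The higher ones were *daf-12* and its corepressor gene *din-1* (0.54), and the lower ones were *daf-36*, which encodes an enzyme of dafachronic acid synthesis (-0.80), and *nhr-8* (-0.66). Both lower genes were also lower in *malt-1* and *nfki-1* mutants, by 0.5 or more. Over all genes, 5.83% were higher and 4.85% lower by as much in *ilc-17.1* mutants.

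*sma-6* (WBGene00004860, II:6324484-6327355), which encodes the type I receptor of the BMP branch that sets body size, had an FPKM of 17.9 in *npr-1*, 20.2 in *malt-1*, 19.5 in *nfki-1* and 27.5 in *ilc-17.1* mutants, a log2 change of 0.59. Of 18 TGF-β and BMP genes past the minimum, 5 (27.8%, against 5.83% of all genes) were higher by 0.5 or more in *ilc-17.1* mutants, *sma-6* among them. The other 4 were *sma-10* (1.05), *daf-3* (0.82), *sma-9* (0.78) and *daf-8* (0.57). Each of these was above 0.2 in *nfki-1* mutants, which kept it out of the selection.

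Autophagy encloses parts of the cytoplasm in a double membrane and delivers them to lysosomes, and phosphoinositides mark the membranes on this route. *epg-4* (WBGene00018150, III:7181970-7184049), which acts in the maturation of autophagosomes, had an FPKM of 31.3 in *npr-1*, 35.5 in *malt-1*, 34.8 in *nfki-1* and 46.3 in *ilc-17.1* mutants, a log2 change of 0.55. *epg-7* (WBGene00020334, X:7334714-7340224), which encodes a scaffold protein for the degradation of protein aggregates, had 13.1, 14.4, 15.1 and 20.3 FPKM, a log2 change of 0.59. For both genes the *malt-1* and *nfki-1* values lay between those of *npr-1* and *ilc-17.1* mutants. Of 24 autophagy genes past the minimum, 7 (29.2%, against 5.83% of all genes) were higher by 0.5 or more in *ilc-17.1* mutants, 1 in *malt-1* and 2 in *nfki-1* mutants. *atg-9* had the largest value of the list at 1.24 and was not selected, as it was at 0.72 and 1.13 in *malt-1* and *nfki-1* mutants. *atg-18* (0.50) and *epg-8* (0.49) were within 0.2 in both other mutants and fell just short of 0.5 in *ilc-17.1* mutants.

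*ppk-3* (WBGene00004089, X:12968950-12975643), the gene of the PIKfyve lipid kinase that makes a phosphoinositide of late endosomes and lysosomes, had an FPKM of 11.5 in *npr-1*, 13.1 in *malt-1*, 13.05 in *nfki-1* and 17.03 in *ilc-17.1* mutants, a log2 change of 0.53. *mtm-5* (X:5234669-5243408), which encodes a protein of the myotubularin family, had 5.43, 5.63, 6.32 and 8.32 FPKM, a log2 change of 0.54. A list of phosphoinositide kinase and phosphatase genes, which also holds the RNA helicase gene *sacy-1* (-0.27), had 18 genes past the minimum. Of these, 3 were higher by 0.5 or more in *ilc-17.1* mutants, and the third was *piki-1* at 0.62. That is 16.7%, against 5.83% of all genes and 12.9% of the longest quintile. The count was 0 in both other mutants. In the secretory pathway, *sec-16A.2*, which belongs to the family of Sec16 proteins of endoplasmic reticulum exit sites, had 29 FPKM in the control and 41.8 in *ilc-17.1* mutants (0.51).

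Protein kinases of other pathways are also members. *ver-3*, which encodes a receptor tyrosine kinase related to VEGF receptors, had an FPKM of 11.6 in *npr-1*, 11.7 in *malt-1*, 13.004 in *nfki-1* and 17.2 in *ilc-17.1* mutants, a log2 change of 0.53. With *daf-2*, it was among 4 of 10 receptor tyrosine kinase genes higher by 0.5 or more in *ilc-17.1* mutants, beside *let-23* (0.56) and *ddr-1* (0.54). The share was 40%, against 5.83% of all genes and 12.9% of the longest quintile. The median length of the 10 was 4062 bases. *mtk-1*, a MAP kinase kinase kinase gene, had 12.9, 13.05, 14.7 and 18.9 FPKM (0.52). *ikke-1*, which encodes a kinase related to the mammalian IKKε of innate immune signaling, had 19.7, 21.1, 22.4 and 28.4 FPKM (0.51). These were the only 2 of 9 MAP kinase kinase kinase and IKK-related genes past the minimum that reached 0.5 in *ilc-17.1* mutants. That is 22.2%, against 5.83% of all genes and 12.9% of the longest quintile. The median of the 9 was 0.38.

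Cell junctions and Wnt signaling were represented by *hmp-1*, the α-catenin gene, and *apr-1*, which encodes a protein related to the tumor suppressor APC. *hmp-1* (V:11845877-11852165) had an FPKM of 26.4 in *npr-1*, 26.2 in *malt-1*, 28.6 in *nfki-1* and 38.4 in *ilc-17.1* mutants, a log2 change of 0.52. *apr-1* had 9.60, 9.99, 11.1 and 14.2 FPKM, also a log2 change of 0.52. The value of *hmp-1* in *malt-1* mutants was thus almost that of the control, while *apr-1* was near the upper limit in *nfki-1* mutants. A list of junction and related genes, with cadherin and catenin genes beside others such as *apr-1* and *ajm-1*, had 13 genes past the minimum. Of these, 5 (38.5%, against 5.83% of all genes and 12.9% of the longest quintile) were higher by 0.5 or more in *ilc-17.1* mutants, and all 13 were above 0. The median length of these 13 genes was 3901 bases. The other 3 were *afd-1* (0.69), *ajm-1* (0.65) and *jac-1* (0.61), which were over 0.2 in both other mutants.

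**Figure D2:**
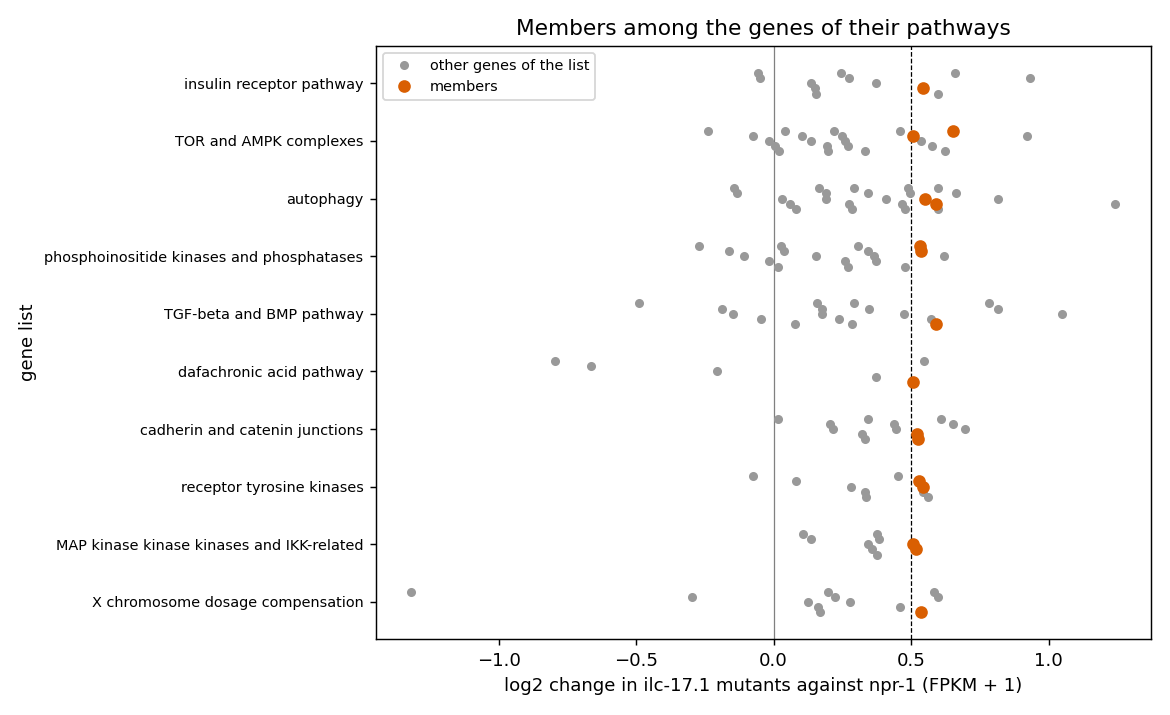
Log2 change in *ilc-17.1* mutants against *npr-1*, on FPKM + 1 (horizontal axis), of every gene past the FPKM minimum in 10 pathway lists that were written with the member names known. Orange points are members, grey points the other genes of a list, spread vertically only for legibility, and the dashed line marks 0.5. The members sit just right of the line, beside genes such as *atg-9* (1.24) and *sma-10* (1.05) that lie further out.

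Genes of the *nhr* family of nuclear receptors were also selected. Of 151 *nhr* genes past the minimum, 10 (6.62%) were higher by 0.5 or more in *ilc-17.1* mutants, against 5.83% of all genes, and 3 of these were members. *nhr-209* (V:12098149-12100111) had an FPKM of 2.73 in *npr-1*, 2.66 in *malt-1*, 2.60 in *nfki-1* and 5.36 in *ilc-17.1* mutants, a log2 change of 0.77 with both other mutants slightly below the control. *nhr-153* (V:12104273-12106507) had 7.57, 7.41, 7.51 and 11.7 FPKM (0.57), and *nhr-99* had 5.35, 5.16, 5.63 and 8.00 FPKM (0.50). In these 3 genes the *malt-1* value was the same as or lower than the control, unlike in most members. *nhr-209* and *nhr-153* lie on the same strand, with *nhr-154*, at 0.26, between them. Related receptors of this family can share sequence, and their values may be less certain for that reason.

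Members with a known role in neurons included *cca-1*, *ser-3* and *rpm-1*. *cca-1*, which encodes a T-type calcium channel, had an FPKM of 5.55 in *npr-1*, 6.33 in *malt-1*, 6.18 in *nfki-1* and 9.21 in *ilc-17.1* mutants, a log2 change of 0.64. Its locus in the table holds 11 genes. *ser-3*, an octopamine receptor gene, had 5.21, 5.96, 5.91 and 7.85 FPKM (0.51). *rpm-1*, which encodes a large ubiquitin ligase that acts in axon growth and synapse formation, had 1.79, 1.97, 2.18 and 2.97 FPKM (0.51), so that the level was low in all genotypes. *srh-2*, a member of a chemoreceptor family, had 2.02, 2.30, 2.45 and 4.28 FPKM, and its log2 change of 0.81 was the largest of any member with a gene name.

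Single members have roles at chromatin or in transcription. The lists of chromatin regulators (32 genes past the minimum) and of the Mediator and RNA polymerase II (13 genes) hold 0 members, but are too short for that to say anything. In *ilc-17.1* mutants, 10 of the 32 (31.25%) and 2 of the 13 (15.4%) were higher by 0.5 or more, and 1 of the 32 was lower by as much. The share higher was 5.83% over all genes and 12.9% in the longest quintile. Median lengths of the lists were 4070 and 3960 bases. *sdc-3* brings the dosage compensation complex to the X chromosome in hermaphrodites. It had an FPKM of 2.57 in *npr-1*, 2.59 in *malt-1*, 2.37 in *nfki-1* and 4.18 in *ilc-17.1* mutants, a log2 change of 0.54. Of 12 genes in the dosage compensation list, 3 (25%, against 5.83% of all genes) were higher by 0.5 or more in *ilc-17.1* mutants. Besides *sdc-3* these were *dpy-21* (0.60) and *sdc-2* (0.58). The largest change of that list was a decrease, -1.32 for *her-1*, a gene of sex determination. This gene had low levels, with 2.68 FPKM in *npr-1*, 1.97 in *malt-1*, 4.14 in *nfki-1* and 0.48 in *ilc-17.1* mutants. *baz-2*, related to the BAZ2 family of chromatin proteins, had 3.80, 3.61, 4.25 and 6.21 FPKM (0.59). *attf-5*, which encodes an AT-hook protein, went from 2.11 in *npr-1* to 3.45 in *ilc-17.1* mutants (0.52), and the homeobox gene *ceh-58* from 6.58 to 9.99 (0.54).

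The remaining members with a gene name were *lrp-2*, *cyp-33E1*, *clec-266* and *fbxa-219*. *lrp-2*, which encodes a very large receptor of the LDL receptor family, had an FPKM of 6.10 in *npr-1*, 6.65 in *malt-1*, 6.13 in *nfki-1* and 9.44 in *ilc-17.1* mutants, a log2 change of 0.56. *cyp-33E1* encodes a cytochrome P450 and had 9.17 FPKM in the control and 13.6 in *ilc-17.1* mutants (0.53). The F-box gene *fbxa-219* had 8.85 and 13.7 (0.58). The C-type lectin gene *clec-266* had 1.34 and 2.53 (0.60), and it was the member farthest below the control in *malt-1* mutants, at -0.19.

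**Figure D3:**
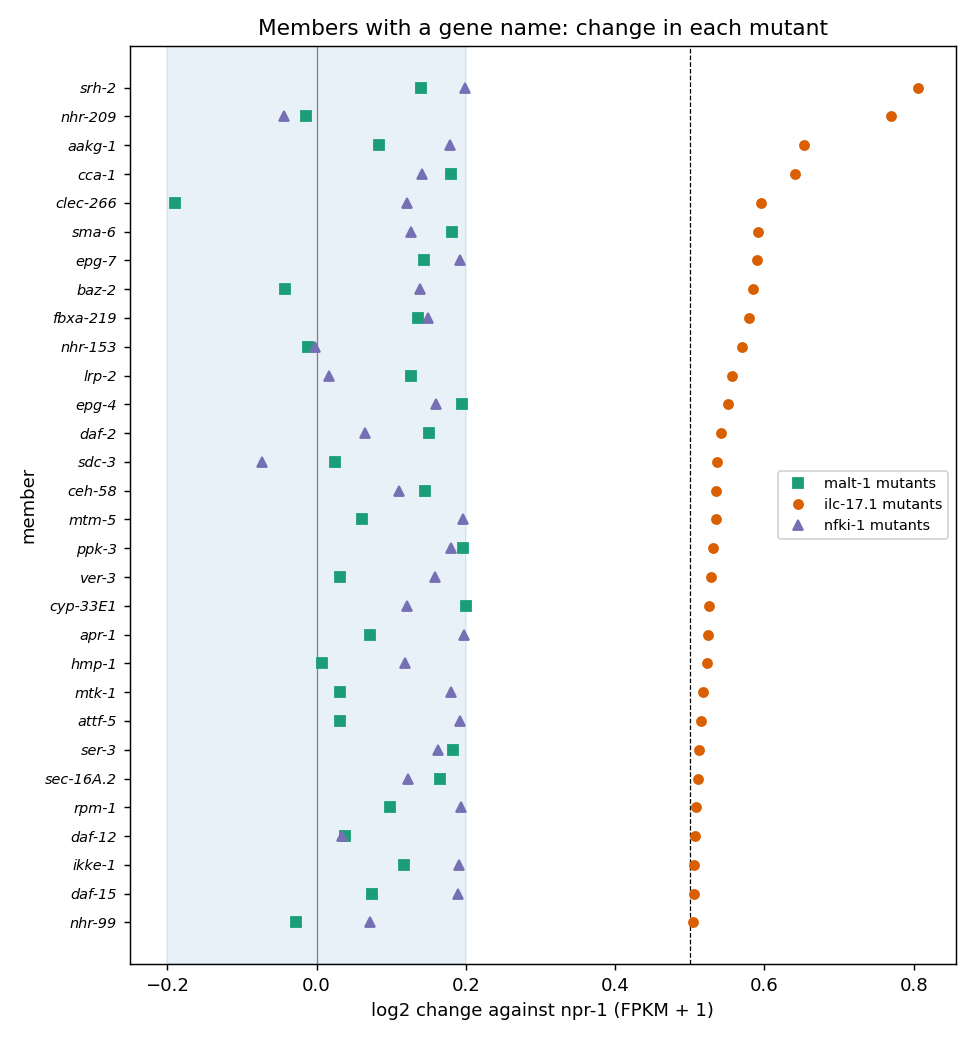
Log2 change against *npr-1*, on FPKM + 1 (horizontal axis), of the 30 members with a gene name, ordered by their change in *ilc-17.1* mutants. Squares are *malt-1*, circles *ilc-17.1* and triangles *nfki-1* mutants, each from 1 FPKM value per genotype; the band marks changes within 0.2 and the dashed line 0.5. *srh-2* (0.81) and *nhr-209* (0.77) stand above the others, and most triangles and squares lie right of 0.

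The other 35 members have a sequence name only, and the reference gives them no gene name. Their log2 change in *ilc-17.1* mutants ran from 0.51 to 0.82 with a median of 0.56, against 0.54 for the 30 members with a gene name. They were expressed at a lower level in *npr-1*, with a median of 4.44 FPKM against 9.01, and had shorter transcripts, with a median of 1282 bases (261 to 6460) against 4062 (982 to 14848). In all, 6 of the 35 and 20 of the 30 were in the longest quintile of genes by transcript length.

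Of the 10 members with the largest change, 8 have a sequence name. The first was C10A4.13 (WBGene00206485, X:7397646-7398035), with an FPKM of 1.91 in *npr-1*, 1.94 in *malt-1*, 2.21 in *nfki-1* and 4.132 in *ilc-17.1* mutants, a log2 change of 0.82. Its longest transcript in the reference is longer than its locus in the table, so the gene models differ. The same holds for K06A4.10, *nhr-209*, ZC239.13, C05D11.13 and Y71H2B.8, and the lengths of all these members may be less certain. K06A4.10 followed among the sequence names with 4.44, 4.74, 4.94 and 8.27 FPKM (0.77), then Y38C1AA.6 with 2.81, 3.24, 3.05 and 5.42 (0.75) and Y2H9A.4 with 1.78, 1.65, 2.137 and 3.64 (0.74). These were low levels, and 8 of the 10 were under 5 FPKM in *npr-1*. F11C1.9 (0.69), T03E6.8 (0.67) and F35D2.6 (0.67) were also among the 10, as was F34H10.3 at 0.66. F42G2.2 (0.63), F27C1.4 (0.62), Y43F8B.12 (0.62) and C05B5.5 (0.59) came within the first 20. Of the first 10, 0 were in the longest quintile by transcript length, and their median length was 1297.5 bases against 2131 for the other 55 members.

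Other sequence-named members were abundant. F54F2.14 (III:8786354-8792346) had the highest level of any member, with an FPKM of 137.7 in *npr-1*, 152.5 in *malt-1*, 145.4 in *nfki-1* and 213.5 in *ilc-17.1* mutants, a log2 change of 0.63. Its longest transcript has 712 bases with 120 coding bases, and its locus in the table is shared with 3 other genes, so reads of neighboring genes may enter its value. F49E2.5 (X:9543670-9560801), with 29 annotated transcripts the member with the most, had 59.4, 55.7, 61.4 and 86.6 FPKM (0.54). F34H10.3 (X:9633284-9635647) had 46.2, 47.6, 47.6 and 73.5 FPKM (0.66). After these and *aakg-1*, the next highest levels in *npr-1* were those of F56C9.8 (32.0), *epg-4* (31.3), *sec-16A.2* (29), D1086.5 (28.9), *hmp-1* (26.4) and ZC373.5 (24.7).

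**Figure D4:**
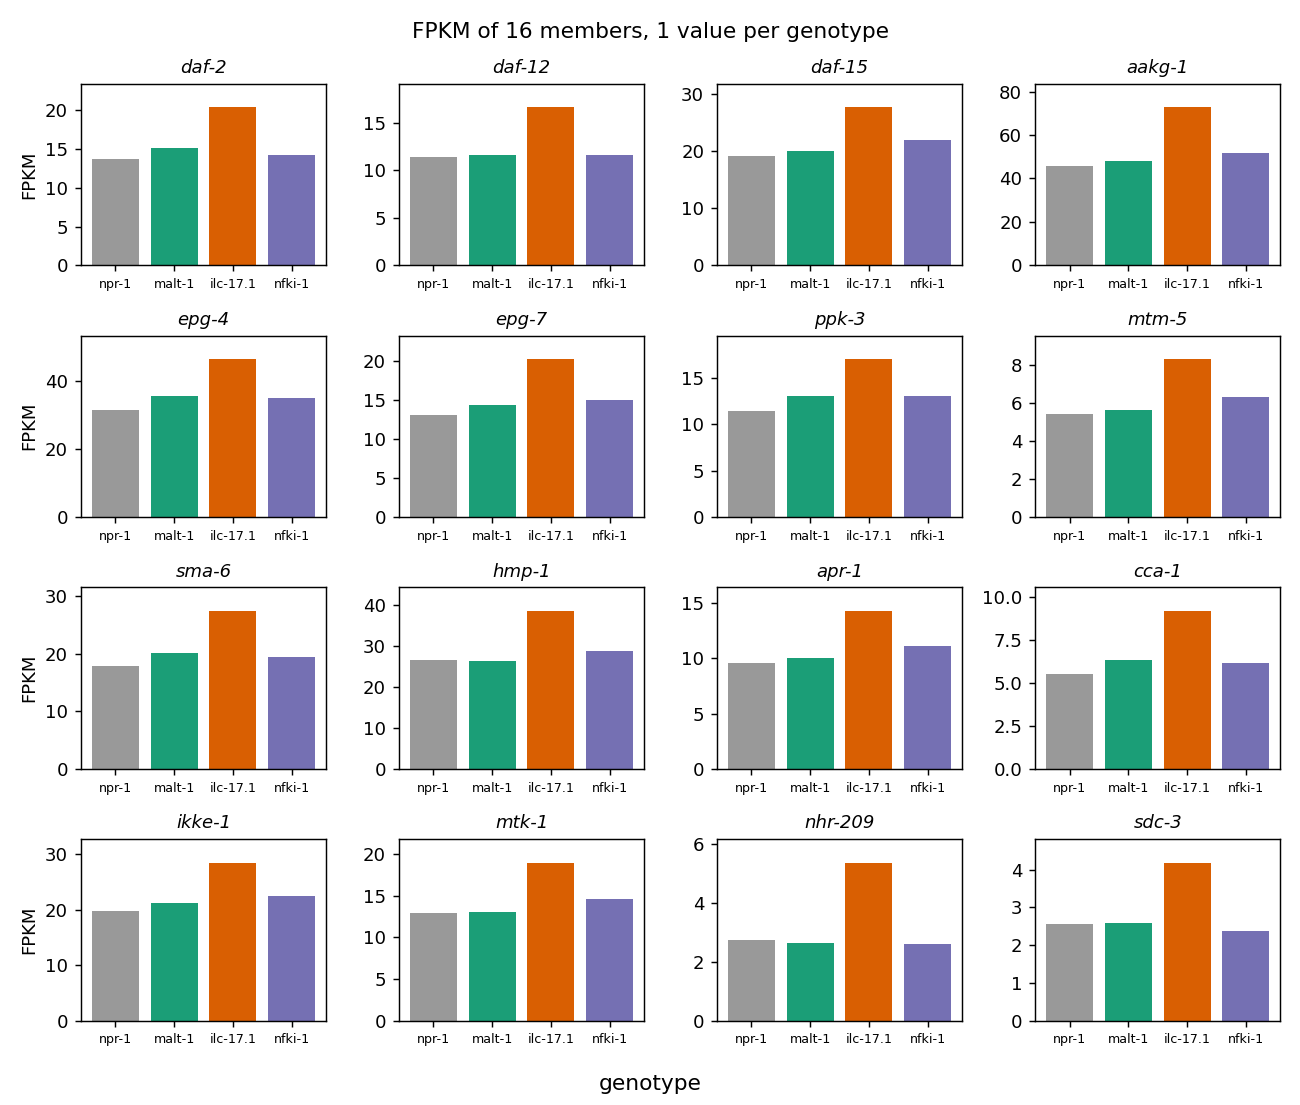
FPKM (vertical axis, starting at 0, a different scale in each panel) of 16 members with a known role in *npr-1* animals and the 3 mutants, 1 value per genotype and hence no error bars. In every panel the *ilc-17.1* bar is the highest, as the selection required, with *aakg-1* at 72.8 and *sdc-3* at 4.18 as the extremes.

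As a group the members were expressed at a low level. Their median FPKM in *npr-1* was 6.10, with quartiles of 3.105 and 13.7 and a range of 1.17 to 137.7, against a median of 19.5 for all genes past the minimum. Other sets chosen by a rise also had low medians, so this is not particular to the members. The median was 9.94 for all 685 genes higher in *ilc-17.1* mutants, 12.4 for those higher only in *nfki-1* mutants and 3.25 for those higher only in *malt-1* mutants. For the 24 genes lower only in *ilc-17.1* mutants it was 27.3. Under 5 FPKM were 26 members (40.0%), against 19.5% of all genes, and 8 of these were under 2. Another 29 members were between 5 and 20, and 10 were at 20 or above. At low FPKM the added 1 makes the log2 change smaller than the ratio of the FPKM values.

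Transcript length was not part of the selection, although FPKM contains it as a divisor. The longest annotated transcript of a member had a median of 1855 bases (quartiles 1144 and 4223), against 1330 bases (834.5 and 2012.5) over all genes past the minimum. The coding length had a median of 1455 bases against 1059, and the number of exons a median of 8 against 6. The longest transcripts belonged to *lrp-2* (14848 bases), *rpm-1* (11574), *daf-2* (7325), *sdc-3* (6774) and F46H5.4 (6460). The shortest belonged to F11C1.9 (261), K06A4.10 (303), F27C1.4 (420), ZC239.13 (436) and Y38H6A.5 (482).

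When all genes past the minimum were divided into 5 equal groups (quintiles) by transcript length, 26 members (40.0%) were in the longest, which starts at 2277 bases. The other groups held 11, 12, 8 and 8 members from long to short. The longest quintile contained *daf-2*, *daf-12*, *daf-15*, *aakg-1*, *epg-7*, *ppk-3*, *mtm-5*, *ver-3*, *mtk-1*, *ikke-1*, *hmp-1* and *apr-1*, whereas *epg-4*, *sma-6* and the 3 *nhr* members were outside it. Over all genes, the median log2 change in *ilc-17.1* mutants moved with length, from -0.11 in the shortest quintile through -0.07, -0.04 and 0.02 to 0.20 in the longest. In *nfki-1* mutants the medians were -0.09, -0.07, -0.04, 0.00 and 0.10, and in *malt-1* mutants 0.03, 0.00, -0.02, -0.04 and 0.01. The share of genes higher by 0.5 or more in *ilc-17.1* mutants was 12.9% in the longest quintile and between 2.59% and 6.21% in the others. The part of this trend in the higher values of the long members was not tested.

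Long genes were also frequent among all genes with a higher value in *ilc-17.1* mutants. Of the 685 such genes 44.1% were in the longest quintile, with a median length of 1894 bases. Members made up 8.61% of the genes higher by 0.5 or more in the longest quintile, and 10.8%, 16.22%, 13.1% and 5.48% in the next quintiles down to the shortest. Genes selected by the same rule for another mutant had lower medians. The 124 genes higher only in *nfki-1* mutants had a median of 992 bases with 4.03% in the longest quintile, and the 12 higher only in *malt-1* mutants had a median of 455.5 bases with 0 in it. The 33 genes higher in *ilc-17.1* and *nfki-1* but not in *malt-1* mutants had a median of 3243 bases, and 60.6% were in the longest quintile. The 24 genes lower only in *ilc-17.1* mutants had a median of 741.5 bases, with 0 in the longest quintile. These sets were all chosen on values that move with length, and no test of the differences is given.

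**Figure D5:**
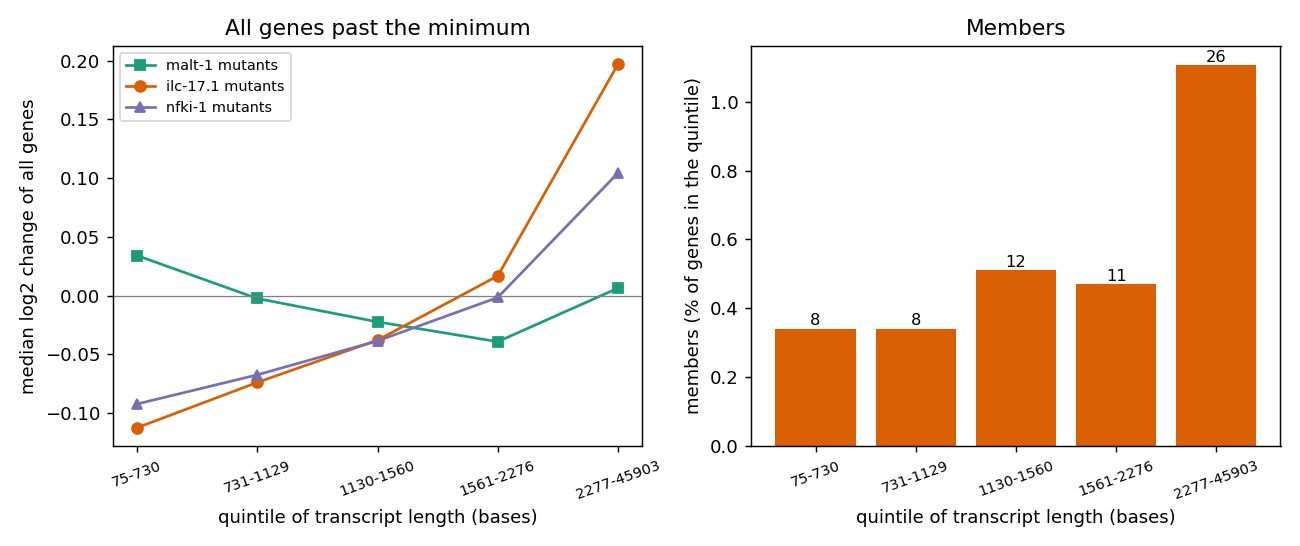
Left, median log2 change against *npr-1* (vertical axis) of all genes past the FPKM minimum in 5 groups of equal size by transcript length (horizontal axis, bases) in each mutant. Right, members as a percentage of the genes in each group, with their number above the bar: 26 members were in the longest group, in which the *ilc-17.1* median was 0.20 and the *nfki-1* median 0.10.

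The members lay on all 6 chromosomes, with 9 on I, 7 on II, 13 on III, 4 on IV, 16 on V and 16 on X. The X chromosome held 24.6% of the members and 12.96% of the genes past the minimum. Genes on X were also slightly higher as a whole in *ilc-17.1* mutants, with a median log2 change of 0.07, and 8.74% of them were higher by 0.5 or more. Of all 685 genes higher in *ilc-17.1* mutants, 19.4% were on X. The X-linked members had a median transcript length of 4362 bases, against 1483.5 for X-linked genes past the minimum, and 11 of the 16 were in the longest quintile. Among them were *daf-12*, *ppk-3*, *mtm-5*, *epg-7*, *ver-3* and *cca-1*. The part of gene length in the share on X was not tested.

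The members were mostly not neighbors. By the reference annotation, 4 pairs of successive members lay within 50 kb of each other, and none of the genes between the members of a pair that passed the minimum reached 0.5. These were F35D2.6 and R07G3.8 on II with 7 genes between, R07B7.6 and *nhr-209* on V with 7, *nhr-209* and *nhr-153* on V with 1, and *ppk-3* and F11C1.9 on X with 2. The 2 pairs on V form a single stretch of 3 members, R07B7.6, *nhr-209* and *nhr-153*. In the deposited values, 42 members had a locus of their own, and for 23 the locus was shared with at least 1 other gene. The values of the 23, which include *daf-2*, *daf-12*, *hmp-1*, *apr-1*, *cca-1*, *ser-3* and *rpm-1*, may be less certain, since it is not given how reads were divided within a locus.

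By function, 14 of the 65 members were in at least 1 of 27 lists of gene families and processes, 25 when the 10 pathway lists written after their names were known are added, and 40 in none. At 0.553% of all genes, most of the lists are too short for 0 members to say anything about the group. The cytosolic ribosome list, with 77 short genes past the minimum, had a median of -0.36 in *ilc-17.1* mutants, and none of its genes was above 0. The giant muscle and cytoskeleton proteins had a median of 0.43 with 6 of 21 genes (28.6%) at 0.5 or above, and 0 members. The share was 5.83% over all genes and 12.9% in the longest quintile, and the median length of the 21 was 8350 bases.

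The tissue in which the members were higher is not resolved by RNA of whole animals, in which fewer cells of a type and less RNA per cell cannot be told apart. None of the 65 members was among the markers of 11 tissues. With members at 0.553% of all genes, the marker lists are too short for that to say anything about the group. The germ line markers were lower in *ilc-17.1* mutants, by 0.5 or more for 6 of 8, and their summed FPKM was 870.2 in *npr-1*, 698.7 in *malt-1*, 685.7 in *nfki-1* and 576.3 in *ilc-17.1* mutants. The 3 coelomocyte markers summed to 16.39, 11.4, 7.87 and 8.17 FPKM in the same order. Other marker sums were higher in *ilc-17.1* mutants than in *npr-1*. They were, in the same order, 430.5, 372.02, 549.3 and 542.97 FPKM for oocytes, 300.8, 315.3, 277.5 and 372.2 for epidermis, and 65.4, 69.4, 76.2 and 73.2 for the somatic gonad. Sperm markers summed to 374.2, 419.01, 497.9 and 331.1, neurons to 580.3, 538.8, 507.7 and 537.5, and intestine to 2533, 2572, 2591 and 2534. The body wall muscle sum of 6989, 6338, 6323 and 6782 was carried by *mlc-3* (3184 in the control and 2544 in *ilc-17.1* mutants), while the median log2 change of the 8 muscle markers in *ilc-17.1* mutants was 0.23. The epidermis sum was carried by *bli-1* (252.2 in *npr-1*, 264.1 in *malt-1*, 221.6 in *nfki-1* and 309.5 in *ilc-17.1* mutants). Of the less abundant epidermis markers, *lin-26* was also highest in *ilc-17.1* mutants (53.3), while *elt-1* was highest in *nfki-1* mutants (9.52). The germ line sum thus had its lowest value in the genotype in which the members had their highest. The epidermis sum, mostly *bli-1*, had its highest there too, and the part of either in the members' values was not tested.

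Some genes could not become members at all. Of the protein-coding genes, 3264 are listed at exactly 0 in all 4 genotypes, among them 5 of the 7 pharynx markers (including *myo-1* and *myo-2*) and 3 of the 8 epidermis markers (*dpy-7*, *dpy-13* and *sqt-3*). The group therefore says nothing about such genes.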

How the data were processed

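The authors captured polyA RNA, made stranded libraries and sequenced 50-base single-end reads. The submitters' processing notes name Trim Galore 0.4.3, TopHat2 2.1.0, Cufflinks 2.2.1 and Cuffdiff. The genome build, and whether strand was used in counting, are not given in the sources used here. Of 23207 genes with a locus of their own, 16322 have the start of the WBcel235 annotation (Ensembl release 115), from which names, gene types and lengths were taken. The table's own coordinates are printed, with 1-based starts.

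The authors deposited 1 FPKM value per genotype in each comparison. The *npr-1* values of the *malt-1* and *nfki-1* comparisons are 0.986 and 0.994 times those of the *ilc-17.1* comparison. The table also holds the authors' fold changes, test statistics, p-values and q-values, which were not used. It has 0 columns of values per sample.

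The selection was computed with Python 3.11.15 and pandas 2.3.3 and tested on simulated data. The alternatives tried were other added values, minimums and limits, centring on the median, and genes with a locus of their own. The members and all lists were chosen with earlier results of these data known, and 10 pathway lists after the member names had been seen. The genes named are the 20 largest changes, the 10 highest levels, the 5 longest and 5 shortest transcripts, the genes nearest the limits, the pathway genes, and members in a list. The other members with a gene name, and the genes given beside members, were chosen after their values were seen. No promoter or protein sequences were used here.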

Additional observations from a re-analysis of the deposited data

How the results depend on the processing

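The number of members was 65 as given. It was 59 with changes centred on the median of all genes and 82 with no minimum, both within 1.5 times of 65. It was 13 with 5 added to each FPKM, 39 with an FPKM of at least 5, 160 and 5 with a limit of 0.4 and 0.75 in *ilc-17.1* mutants, 14 and 137 with the other mutants within 0.1 and 0.3, and 42 with a locus of their own. Adding 0.1, which gave 89, kept 45 of the 65, and adding 5 kept 6. F34H10.3 and F49E2.5 were selected under 9 of the 10 alternatives and no member under all 10. The median transcript length exceeded that of all genes by 525 bases as given, 1062 with 5 added, 819 with an FPKM of at least 5, 308.5 with no minimum, 997.5 with a limit of 0.4, 73 within 0.1 and 1062 within 0.3. With a limit of 0.75, which leaves 5 members, the difference was -100 bases. The share in the longest quintile was 61.5% with 5 added, 21.4% within 0.1 and 0 with a limit of 0.75. The members in at least 1 fixed list numbered 14 as given, 0 with 5 added, 29 and 2 with a limit of 0.4 and 0.75, 3 and 26 within 0.1 and 0.3, and 6 with a locus of their own, an alternative that was added for this count after seeing the data, as were those for the share in the longest quintile.

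No paired analysis was possible because the table holds 1 value per genotype, and for the same reason no fit without a replicate was run. The depth is unknown, and a difference of 0.5 was not set against a spread between replicates, since the authors' own test results were not used.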
